A study of Homo sapiens with 6 samples.

Results

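The genes described here encode 10 integrin chains of leukocytes: the β2 chain ITGB2 with its α partners ITGAM, ITGAX and ITGAL, the α chains ITGA4, ITGA5, ITGAV and ITGA6, and the β chains ITGB1 and ITGB7. They were chosen by name, with the higher level of ITGAM after CTCF depletion already known, to set ITGAM beside its neighbours and beside other integrin chains. All 10 are among the 30017 genes of the count table, which lists 26 integrin chains in all, and all 10 passed the filter on low counts that left 14758 genes for testing. ITGAM, ITGAX and ITGAL passed it only through the libraries at 96 h, so that they had to differ from 0 h.

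RNA-seq was performed on total RNA depleted of ribosomal RNA from BLaER1-CTCF-mAID cells, 1 subclone of a human B cell leukemia line (labelled BLaER, CTCF-AID). All cells carry an estradiol-inducible CEBPA transgene, which drives the change from B cell to macrophage, and an auxin-inducible degron on CTCF. The 3 groups were untreated cells at 0 h (0 h control), cells at 96 h after induction with estradiol, interleukin and macrophage growth factor but without auxin (96 h control), and cells at 96 h that also received auxin from the time of induction (96 h CTCF-depleted). The replicates are biological ones per the methods. Each group had 2 libraries, and total counts were 9273470 and 12718780 at 0 h, 11695516 and 11267539 in the 96 h control and 11001175 and 10911481 after CTCF depletion. Auxin-treated cells without the degron are not among these libraries, so that auxin itself and loss of CTCF cannot be told apart.

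Integrins are transmembrane receptors made of 1 α and 1 β chain, and a chain reaches the cell surface mostly as part of such a pair. The β2 integrins are restricted to leukocytes: αLβ2 (LFA-1) binds ICAM proteins on other cells, whereas αMβ2 (Mac-1, complement receptor) and αXβ2 (CD11c) bind complement fragments, fibrinogen and other ligands on macrophages, monocytes and dendritic cells. The β1 and β7 chains pair with α4, which binds VCAM-1, fibronectin and mucosal addressin, and β1 also pairs with α5, αV and α6, receptors for fibronectin, RGD-containing proteins and laminin.

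The CTCF transcript itself had counts of 2235 and 2849 at 0 h, 2048 and 1875 in the 96 h control and 2062 and 2051 after depletion. Its log2 fold change between the groups at 96 h was 0.10 ± 0.05 (SE; adjusted p = 0.119, edgeR's quasi-likelihood test). Because the degron is a protein tag, the level of this transcript says nothing about the depletion.

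The cells were compared with marker genes of the cell types in question. Levels are given as CPM, counts per 1000000 counts of a library size scaled by edgeR's TMM factors. Markers of B cell precursors summed to 4039 and 3998 CPM at 0 h, to 409 and 414 CPM in the 96 h control and to 357 and 374 CPM after depletion, and EBF1 was the most abundant of these 11 genes in every library. Markers of macrophages and monocytes summed to 41.0 and 39.1 CPM at 0 h, to 5295 and 5037 CPM in the 96 h control and to 4724 and 4697 CPM after depletion, with LYZ the most abundant at 96 h. The libraries at 96 h therefore had macrophage transcripts at a high level and B cell transcripts at a low level in either group, and the rise of an integrin in bulk RNA cannot be divided between more cells that express it and more RNA in each cell.

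The study required an adjusted p below 0.01 and a log2 fold change beyond 0.6 in either direction, with DESeq2. Here a gene was called when it passed the same thresholds in edgeR's quasi-likelihood test. At 2 libraries in a group, the test leans on variability that edgeR pools over all genes, and an exact two-sided permutation test of 2 against 2 libraries cannot give a p below 0.333. Between 0 h and the 96 h control, 8 of the 10 integrin genes were called higher, where 25.4% of all tested genes were, and 1 was called lower, where 22.9% of all tested genes were. The genes called higher were the 4 of the β2 integrins, ITGA5, ITGA6, ITGB1 and ITGB7. ITGA4 was the gene called lower, and ITGAV was not called. Without ITGAM, ITGAX and ITGAL, which passed the filter only through the libraries at 96 h, 5 were called higher.

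The β2 integrins were nearly silent at 0 h apart from the β chain. ITGAM, the αM chain (chr16:31259967-31332892, plus strand, GENCODE 44 on hg38), had 6 and 6 counts at 0 h, equal to 0.619 and 0.450 CPM, then 120 and 136 CPM in the 96 h control and 289 and 280 CPM after CTCF depletion. The libraries fell into 3 separate levels, with both depleted libraries above both controls. The log2 fold change from 0 h to the 96 h control was 7.91 ± 0.15 (SE). Between the depleted and control groups at 96 h the group means were 285 ± 6.65 and 128 ± 11.1 CPM (SD, n = 2), a log2 fold change of 1.15 ± 0.06 (SE) or 2.22-fold. These values are a description, since ITGAM was picked for the second of them and passed the filter only through the libraries at 96 h.

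ITGAX, the αX chain, starts 22.2 kb beyond the end of ITGAM on the same strand (chr16:31355134-31382999). It had 0 counts in both libraries at 0 h, 124 and 116 CPM in the 96 h control and 138 and 129 CPM after depletion. The 96 h control was thus at least 450-fold above 0 h, taking 3 counts in each library at 0 h as the floor of detection. Both depleted libraries lay above both controls, but the difference was small: the log2 fold change was 0.15 ± 0.07 (SE; adjusted p = 0.0552, edgeR's quasi-likelihood test), with a 95% interval (1.96 SE to either side) of 0.03 to 0.28. Without 1 library it ranged from 0.14 to 0.23, and the adjusted p over all alternatives from 0.00181 to 1 (edgeR's quasi-likelihood test or DESeq2), always below the fold threshold.

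ITGAL, the αL chain, lies 736.4 kb before ITGAM (chr16:30472658-30523567, plus strand). It had 2 and 0 counts at 0 h, 184 and 190 CPM in the 96 h control and 180 and 174 CPM after depletion. The summed counts of 4136 at 96 h in the control and 2 at 0 h gave a ratio of 2150, with an exact 95% interval from counting error of 595 to 17800. Both counts at 0 h came from 1 library, and the fitted log2 fold change ranged from 9.70 to 14.05 without 1 library, so that the size of this rise is poorly known. Both depleted libraries were below both controls, with a log2 fold change of -0.08 ± 0.06 (SE; adjusted p = 0.319, edgeR's quasi-likelihood test), and of -0.06 to -0.02 without 1 library.

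ITGB2, the β2 chain that all of these α chains need (chr21:44885953-44931989, minus strand), was already present at 0 h with 25.4 and 20.7 CPM. It reached 454 and 450 CPM in the 96 h control and 492 and 475 CPM after depletion. The log2 fold change from 0 h to the 96 h control was 4.31 ± 0.07 (SE; adjusted p = 2.13e-51, edgeR's quasi-likelihood test), and all libraries at 96 h were far above those at 0 h. The libraries of the groups at 96 h did not overlap, yet the log2 fold change was 0.10 ± 0.05 (SE; adjusted p = 0.0947, edgeR's quasi-likelihood test). This value ranged from 0.11 to 0.15 without 1 library, and its adjusted p reached down to 0.00364 in edgeR's quasi-likelihood test on only the 4 libraries compared.

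ITGB2-AS1, a noncoding RNA gene within ITGB2 on the opposite strand (chr21:44921051-44929680), had 3 and 6 counts at 0 h, 1156 and 1074 in the 96 h control and 1698 and 1667 after depletion. Its libraries separated all 3 groups. The log2 fold change between the groups at 96 h was 0.62 ± 0.06 (SE; adjusted p = 4.29e-12, edgeR's quasi-likelihood test). The library kit keeps the strand, but the strand setting of the counting is not stated, so that reads from ITGB2 and from its antisense partner cannot be told apart with certainty. A further α partner of β2, ITGAD, starts 10.3 kb beyond ITGAX and did not pass the filter, with 2 and 0 counts at 0 h, 5 and 7 in the 96 h control and 22 and 9 after depletion.

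Levels of different genes were compared as CPM per kb of the MANE Select transcript. In the 96 h control ITGB2 had the highest level of the 10 genes, 161 ± 1.17 CPM per kb (SD, n = 2), and 2.06% of the tested genes with a known length were above it. ITGAL stood at 36.4 ± 0.767, ITGAM at 27.1 ± 2.36 and ITGAX at 25.8 ± 1.17 CPM per kb (SD, n = 2). The libraries of ITGAM and ITGAX overlapped on this scale and those of ITGAL were above both, whereas with union exon length ITGAM was 1.11 and 1.34 times ITGAX. After depletion ITGAM stood at 60.3 ± 1.41, ITGAL at 34.6 ± 0.825 and ITGAX at 28.7 ± 1.38 CPM per kb (SD, n = 2), and ITGAM overlapped with ITGB1 in second place behind ITGB2. The level of ITGB1 depends on the length used: with the union of all exons, an alternative chosen after seeing the data, ITGB1 had 20.6 and 19.8 CPM per kb after depletion and ITGAM 57.8 and 55.9 CPM per kb, and ratios to ITGB1 shift with it.

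Expressed as shares of the 4 α partners of β2, per kb, ITGAM made up 28.9% and 31.7% in the libraries of the 96 h control and 48.4% and 48.9% in those of the depleted cells. From the raw counts, 1362 of 4859 (exact Clopper-Pearson 95% interval 26.8% to 29.3%) and 1468 of 4780 (29.4% to 32%) belonged to ITGAM in the controls, and 3125 of 6589 (46.2% to 48.6%) and 3039 of 6344 (46.7% to 49.1%) after depletion. These shares are a description, since ITGAM was picked for its rise, and the intervals give their counting error alone. ITGAL went from 40.8% and 40.7% to 27.8% and 28%, and ITGAX from 30.2% and 27.4% to 23.4% and 22.9%, as shares of a sum that includes ITGAM. The sum of the 4 α chains per kb was 0.544 and 0.567 of the ITGB2 level in the 96 h control and 0.723 and 0.716 after depletion. With union exon length, chosen after seeing the data, it was 0.753 and 0.788 in the control and 1.01 and 0.999 after depletion, so that whether ITGB2 exceeds the sum depends on the length used.

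**Figure D1:**
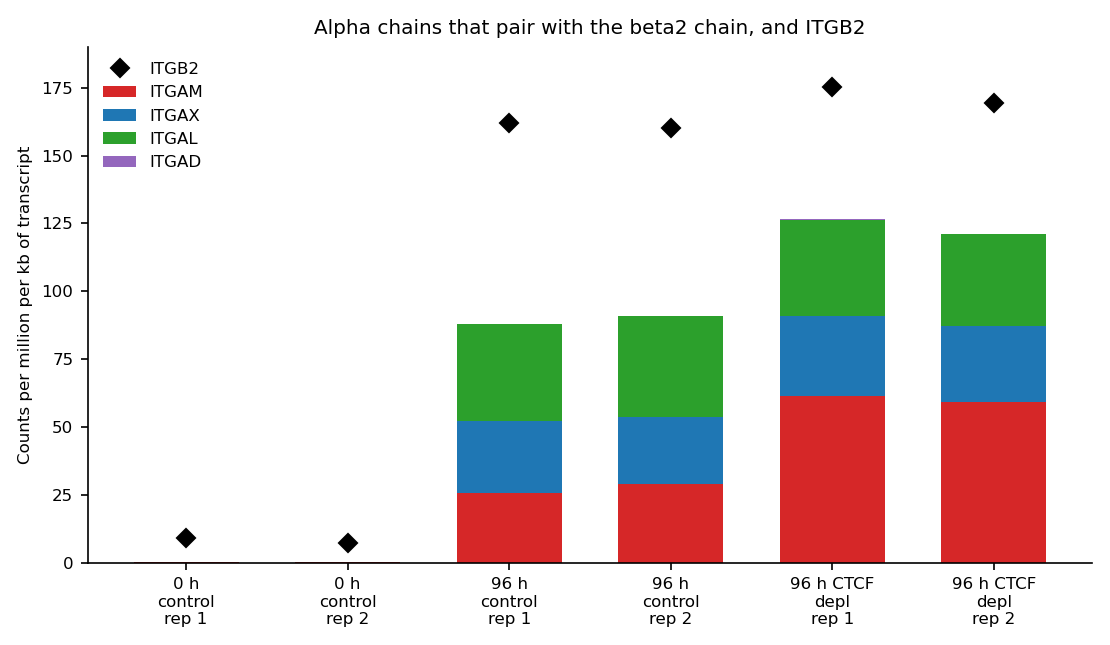
Stacked bars show ITGAM, ITGAX, ITGAL and ITGAD in CPM per kb of transcript (y axis, from 0) in each of the 6 libraries (x axis), and black diamonds show ITGB2 on the same scale. The ITGAM segment is taller in both CTCF-depleted libraries, the ITGAX and ITGAL segments are of similar height in all libraries at 96 h, and on this scale the ITGB2 level is above the sum of the α chains.

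Of the 9 integrin genes other than ITGAM, 1 was called higher between the groups at 96 h (ITGB7), where 5.41% of all tested genes were, and 0 were called lower, where 7.03% of all tested genes were. At an unadjusted p below 0.05 in edgeR's quasi-likelihood test 4 were higher and 1 was lower. Of all 14758 tested genes at least 2375 were higher and 3330 lower at that p, their numbers at the stricter adjusted p below 0.05. DESeq2 also called 1 higher and 0 lower, where it called 559 and 721 of 21566 genes. The median log2 fold change of all tested genes was -0.03, and 80% of them lay between -0.64 and 0.56.

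ITGB7, the β7 chain of the gut-homing receptor α4β7, had 19.9 and 19.4 CPM at 0 h, 49.0 and 54.0 CPM in the 96 h control and 89.1 and 90.1 CPM after depletion. It was higher with each step and the 3 groups did not overlap. The log2 fold change was 1.39 ± 0.09 (SE; adjusted p = 1.58e-20, edgeR's quasi-likelihood test) from 0 h to the 96 h control and 0.80 ± 0.08 (SE; adjusted p = 3.00e-13, edgeR's quasi-likelihood test) between the groups at 96 h. Leaving out any 1 library gave log2 fold changes between 0.76 and 0.90 for the second of these, and ITGB7 was called each time, but it was not called with glmTreat (adjusted p = 0.023, edgeR's quasi-likelihood test against a fold threshold) or with a log2 fold change above 1 required. ZNF740 overlaps ITGB7 on the opposite strand, and its log2 fold change between the groups at 96 h was -0.17 ± 0.07 (SE; adjusted p = 0.0489, edgeR's quasi-likelihood test).

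The promoters of ITGAM and ITGB7 are shown because these genes differed most between the groups at 96 h among the 10. RefSeq promoter sequences (build GRCh38.p14, 250 bases before to 50 bases after the gene start) were at hand for 7 of the 10 genes, and none for ITGAX, ITGAL and ITGB2. They were searched on both strands for GAGGAA, the core bound by the myeloid factor PU.1, for TTNNGCAA, a C/EBP motif, and for AGGGGGC, a portion of the CTCF motif. Capitals mark the matches, all of them to GAGGAA or its reverse complement TTCCTC. ITGAM is at chr16:31259725-31260024 on the plus strand and ITGB7 at chr12:53207202-53207501 on the minus strand.
ITGAM: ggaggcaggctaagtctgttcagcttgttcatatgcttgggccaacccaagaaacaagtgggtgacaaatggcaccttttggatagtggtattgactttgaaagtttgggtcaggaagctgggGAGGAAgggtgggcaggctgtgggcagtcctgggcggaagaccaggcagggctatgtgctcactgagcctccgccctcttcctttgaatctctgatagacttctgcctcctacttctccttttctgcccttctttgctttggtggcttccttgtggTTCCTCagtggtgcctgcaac
ITGB7: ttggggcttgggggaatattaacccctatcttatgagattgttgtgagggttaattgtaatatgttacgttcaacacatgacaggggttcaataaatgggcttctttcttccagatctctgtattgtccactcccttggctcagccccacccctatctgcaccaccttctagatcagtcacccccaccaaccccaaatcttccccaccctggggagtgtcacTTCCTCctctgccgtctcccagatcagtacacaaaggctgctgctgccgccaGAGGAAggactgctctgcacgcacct
Each of these 2 promoters held 2 matches to GAGGAA, 1 on each strand, and none to the other motifs. In ITGAM the matches began 127 bases before and 29 bases after the start, and in ITGB7 they began 28 bases before and 24 bases after it. Of 35116 promoters of the same length, 27.9% held GAGGAA, 10.5% held TTNNGCAA and 14.4% held AGGGGGC. ITGAV and ITGB1, which were not called between the groups at 96 h, also held GAGGAA, with 1 match each in 1 of their 2 promoters. The C/EBP letters were found in the promoter of ITGA5 alone and the CTCF letters in those of ITGA4 and ITGA5, whose levels are given next.

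**Figure D2:**
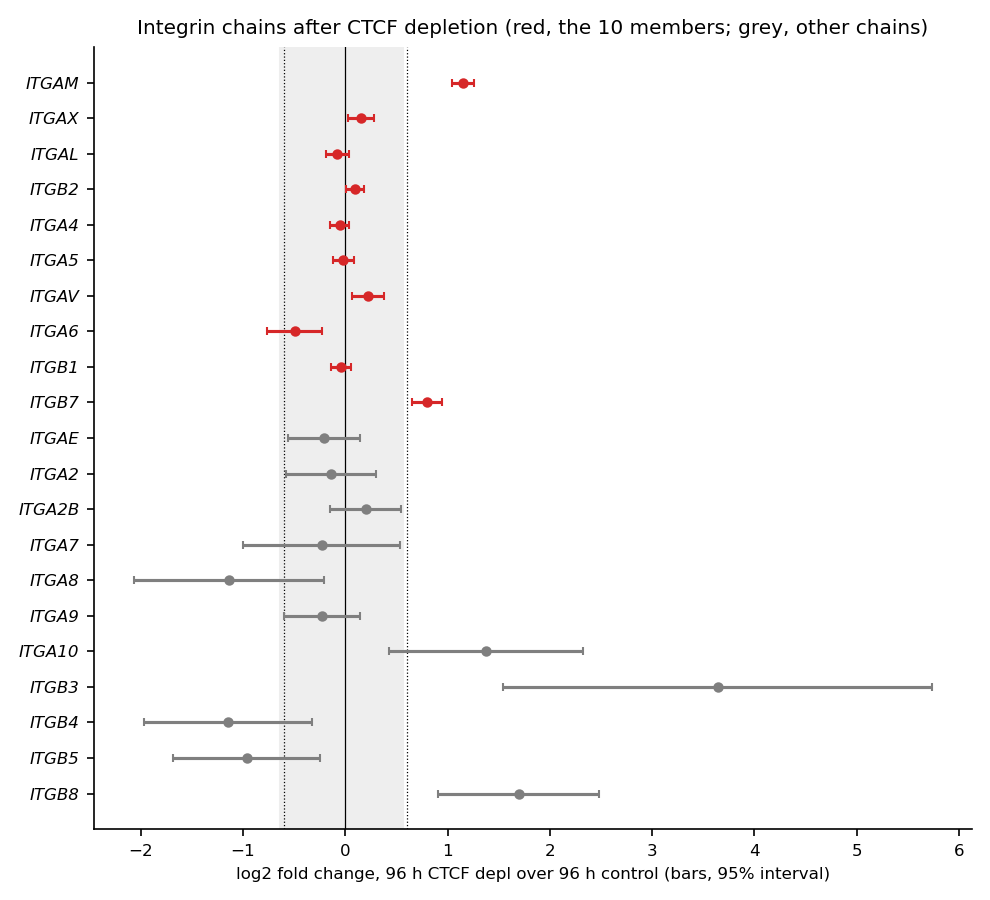
Log2 fold change of the CTCF-depleted group over the 96 h control (x axis) for the 10 integrin genes (red) and the 11 other integrin chains tested (grey), with bars of the 95% interval. Dotted lines mark a log2 fold change of 0.6 in either direction and the shaded band holds 80% of all tested genes. ITGAM at 1.15 and ITGB7 at 0.80 lie right of the dotted line, while ITGAX, ITGAL, ITGB2, ITGA4, ITGA5 and ITGB1 lie close to 0.

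ITGA4, the α4 chain, had the highest level per kb of the 10 genes at 0 h and was the only one of them called lower at 96 h. It had 626 and 682 CPM at 0 h, 315 and 332 CPM in the 96 h control and 306 and 317 CPM after depletion. The libraries at 0 h were above all others, and those of the groups at 96 h overlapped. ITGA4 fell by 1.02 ± 0.05 on the log2 scale (SE; adjusted p = 2.80e-27, edgeR's quasi-likelihood test) from 0 h to the 96 h control. Its log2 fold change between the groups at 96 h was -0.05 ± 0.05 (SE; adjusted p = 0.406, edgeR's quasi-likelihood test).

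ITGA5, the α chain of the classical fibronectin receptor, went the other way. It had 71.6 and 73.3 CPM at 0 h, 213 and 230 CPM in the 96 h control and 221 and 217 CPM after depletion. The groups at 96 h overlapped and both were above 0 h. Its log2 fold change was 1.61 ± 0.06 (SE; adjusted p = 3.50e-33, edgeR's quasi-likelihood test) from 0 h to the 96 h control and -0.02 ± 0.05 (SE; adjusted p = 0.815, edgeR's quasi-likelihood test) between the groups at 96 h. Per kb, ITGA5 was at 0.183 and 0.172 of the ITGA4 level at 0 h and at 1.08 and 1.10 of it in the 96 h control, so that the order of these fibronectin-binding chains changed. After depletion the ratios were 1.15 and 1.09.

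ITGB1, the β chain shared by α4, α5, αV and α6, had 121 and 122 CPM at 0 h, 223 and 241 CPM in the 96 h control and 229 and 220 CPM after depletion. The groups at 96 h overlapped, and both were above 0 h, with a log2 fold change of 0.93 ± 0.05 (SE; adjusted p = 1.55e-23, edgeR's quasi-likelihood test) for the control. For the depleted against the control group it was -0.04 ± 0.05 (SE; adjusted p = 0.52, edgeR's quasi-likelihood test). ITGB2 was at 0.280 and 0.226 of the ITGB1 level per kb at 0 h and at 2.71 and 2.49 times that level in the 96 h control. The β chain with the highest transcript level was thus β1 before and β2 after induction.

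ITGAV, the αV chain of vitronectin receptors, was the one gene of the 10 that was called in neither comparison with 0 h. It had 39.4 and 36.4 CPM at 0 h, 40.2 and 38.4 CPM in the 96 h control and 47.7 and 44 CPM after depletion. The controls overlapped with 0 h, and both depleted libraries lay above all others. Its log2 fold change was 0.06 ± 0.08 (SE; adjusted p = 0.535, edgeR's quasi-likelihood test) from 0 h to the 96 h control and 0.22 ± 0.08 (SE; adjusted p = 0.026, edgeR's quasi-likelihood test) between the groups at 96 h.

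ITGA6, the α6 chain of laminin receptors, had the lowest level per kb of the 10 genes in both groups at 96 h. It had 8.25 and 7.28 CPM at 0 h, 17.7 and 19.8 CPM in the 96 h control and 13 and 13.6 CPM after depletion, so that the depleted libraries were intermediate and the 3 groups did not overlap. Its log2 fold change was 1.28 ± 0.15 (SE; adjusted p = 3.74e-11, edgeR's quasi-likelihood test) from 0 h to the 96 h control. Depleted against control cells gave -0.49 ± 0.14 (SE; adjusted p = 0.00293, edgeR's quasi-likelihood test), which passes the p threshold but not the fold threshold.

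The order of the levels per kb at 0 h was ITGA4 (96.4 ± 5.82), ITGB1 (32.4 ± 0.231), ITGA5 (17.0 ± 0.281), ITGB2 (8.21 ± 1.18), ITGB7 (7.01 ± 0.122), ITGAV (5.38 ± 0.304), ITGA6 (1.33 ± 0.119) and ITGAM (0.113 ± 0.0253 CPM per kb, SD, n = 2), with ITGAL and ITGAX at or near 0 and not separable. This order holds for the MANE Select lengths: with union exon length ITGA5 was above ITGB1 and ITGB7 above ITGB2 in both libraries. In the 96 h control it was ITGB2, ITGB1, ITGA5, ITGA4, ITGAL, ITGAM, ITGAX, ITGB7, ITGAV and ITGA6, and ITGAM alone overlapped with the next in line, ITGAX. After depletion ITGAM overlapped with ITGB1 on this scale, an order that depends on the length used, since with union exon length ITGAM (24.0 and 27.2 CPM per kb) was above ITGB1 (20.0 and 21.6 CPM per kb) in the 96 h control already. ITGB7 moved past ITGAX, with 31.9 ± 0.257 against 28.7 ± 1.38 CPM per kb (SD, n = 2).

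Set against 0 h, the depleted cells had 8 of the 10 genes called higher, where 27.2% of all tested genes were, and 1 called lower (ITGA4), where 25.2% of all tested genes were. Without ITGAM, ITGAX and ITGAL the genes called higher numbered 5 here too. This comparison shares its libraries with the others. ITGAX was at least 501-fold above 0 h, and ITGB2 had a log2 fold change of 4.41 ± 0.07 (SE). ITGA6 had a log2 fold change of 0.79 ± 0.16 (SE; adjusted p = 1.29e-05, edgeR's quasi-likelihood test), a call lost with glmTreat (adjusted p = 0.0845, edgeR's quasi-likelihood test against a fold threshold), which leaves 7 called higher. ITGAV had one of 0.28 ± 0.08 (SE; adjusted p = 0.00185, edgeR's quasi-likelihood test), below the fold threshold.

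The genes around ITGAM on chromosome 16 were examined over 500 kb to either side. The table holds 40 genes in this window, of which 31 were tested. Of the 30 other than ITGAM, 0 were called higher and 0 lower between the groups at 96 h by edgeR, where 5.41% and 7.03% of all tested genes were, and DESeq2 also called 0 in either direction. With so few genes and many low counts, nothing is read from this number. At an unadjusted p below 0.05 in edgeR's quasi-likelihood test 9 were higher and 3 were lower. For all 14758 tested genes these numbers were at least 2375 and 3330, as found at the stricter adjusted p below 0.05. Their median log2 fold change was 0.01, beside -0.03 for all tested genes.

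The direct neighbours of ITGAM are TRIM72, which ends 28.4 kb before it, and ITGAX. TRIM72 had 137 and 183 counts at 0 h, 67 and 68 in the 96 h control and 93 and 62 after depletion, with a log2 fold change between the groups at 96 h of 0.23 ± 0.20 (SE; adjusted p = 0.392, edgeR's quasi-likelihood test). PYDC1, which lies within TRIM72 on the opposite strand, had 2 counts in 1 depleted library and 0 in the other libraries. A split of the window by side was not planned. The 6 tested genes beyond ITGAM on the ITGAX side had a median log2 fold change of 0.45, beside -0.03 for all tested genes. For 6 of 6 of these genes the value was positive. Among them ZNF843 passed the filter only through the depleted group, so that its value had to be positive. The 24 on the other side had a median of -0.06, and 10 of them were positive. None of these genes was called between the groups at 96 h, and several have few counts, so that nothing is read from the split. From 0 h to the 96 h control 9 of the 30 were called higher and 6 lower, where 25.4% and 22.9% of all tested genes were.

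TGFB1I1, which encodes the focal adhesion adaptor Hic-5 and lies 138.7 kb beyond ITGAM, had 9 and 17 counts at 0 h, 38 and 43 in the 96 h control and 66 and 65 after depletion. Its log2 fold change between the groups at 96 h was 0.72 ± 0.25 (SE; adjusted p = 0.0161, edgeR's quasi-likelihood test). ZNF843, 99.7 kb beyond ITGAM, had 7 and 2 counts in the control and 17 and 11 after depletion, too few for a close estimate. SEPHS2, the gene before ITGAL, had a log2 fold change of 0.33 ± 0.08 (SE; adjusted p = 7.91e-04, edgeR's quasi-likelihood test), which passes the p threshold but not the fold threshold. The gene that follows the start of ITGAL is the microRNA gene MIR4518 inside it, with at most 4 counts in any library. TGFB1I1 and ZNF843 were picked after their values were seen.

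Genes whose pair of log2 fold changes (0 h to 96 h control, and between the groups at 96 h) was closest to that of an integrin were sought among 9858 genes with a mean of at least 10 CPM over the 6 libraries. Near ITGAM were TNFSF15 (distance 0.43 on the log2 scale), ITGB2-AS1 (0.53), CD300C (0.54) and IL8 (0.89). CD300C, a myeloid receptor gene, had mean levels of 0.155, 24.0 and 46.8 CPM in the 3 groups.

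For ITGAX the nearest were RGS18 (0.15), ST3GAL6 (0.19), LYZ (0.29), MMP9 (0.39) and SERPINA1 (0.40), genes at or near 0 counts at 0 h whose fitted values depend on the small count that edgeR adds. For ITGB2 they were DGKG (0.08), CCPG1 (0.14), CECR6 (0.14), RAB31 (0.14) and RP5-1043L13.1 (0.15).

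The other integrin chains were mostly low. The table lists 16 of them and 11 were tested, of which 5 were called higher and 3 lower from 0 h to the 96 h control, where 25.4% and 22.9% of all tested genes were. The median log2 fold change was 0.84 beside 0.02 for all tested genes. Among those called, ITGB5 passed the filter only through the libraries at 96 h and ITGB3 only through those at 0 h, where they are high. DESeq2 called 5 in all, where it called 3353 higher and 2975 lower of 21566 genes. With at least 10 counts required in every library 2 were higher and 0 lower, where 2769 and 2700 of 12146 genes were. Fewer of these chains were called higher when any 1 library was left out. ITGA8, an α chain that pairs with β1, had 621 and 952 counts at 0 h, 11 and 14 in the 96 h control and 4 and 7 after depletion. It was high at 0 h and nearly absent later, and fell by 5.90 ± 0.16 on the log2 scale (SE; adjusted p = 3.97e-38, edgeR's quasi-likelihood test). ITGA2B, the αIIb chain of the platelet fibrinogen receptor, went from 18 and 20 counts to 120 and 83, a log2 fold change of 2.46 ± 0.25 (SE; adjusted p = 4.50e-13, edgeR's quasi-likelihood test).

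Between the groups at 96 h, 2 of these 11 chains were called higher and 0 lower, where 5.41% and 7.03% of all tested genes were, with a median of -0.21 beside -0.03 for all tested genes. DESeq2 and glmTreat called 0, and 6 had an unadjusted p below 0.05 in edgeR's quasi-likelihood test. Over all 14758 tested genes at least 2375 were higher and 3330 lower at that p, their numbers at the stricter adjusted p below 0.05. The edgeR calls were lost without either library of the 96 h control and without replicate 2 of the depleted group. ITGB8, a β chain that pairs with αV and activates TGF-β, had 10 and 10 counts in the control and 31 and 33 after depletion, a log2 fold change of 1.70 ± 0.40 (SE), and passed the filter only through the depleted group, in which it is high. ITGB3, the β3 chain, had 0 and 1 counts in the control and 6 and 9 after depletion, a ratio of 15.3 with an exact 95% interval of 2.36 to 645. Both rest on few counts. ITGB5, another partner of αV, had 1 and 0 counts at 0 h, 35 and 33 in the control and 13 and 21 after depletion, and ITGA10 had 18 and 24, 7 and 7, and 18 and 18 counts in the 3 groups.

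Proteins that switch integrins on or off either bind the tails of the chains or act before those that do. Of 18 such genes listed, 16 were tested, and 8 were called higher and 2 lower from 0 h to the 96 h control, where 25.4% and 22.9% of all tested genes were, with a median log2 fold change of 0.58 beside 0.02. TLN1, which encodes talin, the protein that opens the integrin head, had a log2 fold change of 0.71 ± 0.05 (SE), and FERMT3, which encodes the kindlin of blood cells, had 0.29 ± 0.06 (SE) and was not called. CYTH1, which encodes a β2 tail-binding exchange factor, had 2.39 ± 0.06 (SE), and FLNA, whose product filamin competes with talin, had 2.22 ± 0.05 (SE). FERMT1, the kindlin gene of epithelia, fell by 1.88 ± 0.10 on the log2 scale (SE), and TLN2 fell by 1.00 ± 0.19 (SE). The adjusted p of the called genes among these in edgeR's quasi-likelihood test ranged up to 7.15e-06 (TLN2). TLN1 and FERMT3 were added for their role after their values were seen.

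After depletion, 1 of the 16 was called higher and 1 lower, where 5.41% and 7.03% of all tested genes were, with a median of -0.09. An unadjusted p below 0.05 in edgeR's quasi-likelihood test was found for 13 of them. At that p at least 2375 of all 14758 tested genes were higher and 3330 lower, their numbers at the stricter adjusted p below 0.05. With glmTreat 1 was called higher and 0 lower, where 298 and 344 of all tested genes were. FYB, which encodes the adaptor ADAP that links receptors to β2 integrin activation, had 0 counts at 0 h, 371 and 369 in the 96 h control and 819 and 883 after depletion. The control was at least 125-fold above 0 h, and the depleted libraries were above both controls, with a log2 fold change of 1.23 ± 0.08 (SE; adjusted p = 1.20e-19, edgeR's quasi-likelihood test). FERMT1 had 161 and 184 counts in the control and 85 and 97 after depletion, and fell by 0.89 ± 0.14 on the log2 scale (SE; adjusted p = 2.53e-07, edgeR's quasi-likelihood test).

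Kinases, adaptors and actin linkers that act inside the cell once integrins are bound formed a list of 25 genes, 23 of them tested. From 0 h to the 96 h control 13 were called higher and 1 lower, where 25.4% and 22.9% of all tested genes were. The median log2 fold change was 0.66. With at least 10 counts required in every library 7 were higher and 1 lower, where 2769 and 2700 of 12146 genes were. FGR, which encodes a Src family kinase of myeloid cells, and TYROBP, which encodes the signalling adaptor DAP12, were among the listed genes with the largest differences. FGR had 4 and 4 counts at 0 h and 1726 and 1668 in the control, and TYROBP had 1 and 0 and then 609 and 549. VAV3, which encodes an exchange factor for small GTPases, fell by 2.03 ± 0.07 on the log2 scale (SE; adjusted p = 2.38e-33, edgeR's quasi-likelihood test).

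Of these 23, 1 was called higher and 0 lower, between the groups at 96 h, where 5.41% and 7.03% of all tested genes were, at a median of 0.07. DESeq2 also called 1, and glmTreat called 0. With no filter, or with only the 4 libraries compared, 2 were called higher, where 897 of 21566 and 896 of 14100 genes were. An unadjusted p below 0.05 in edgeR's quasi-likelihood test was found for 15 of them. Among all 14758 tested genes at least 2375 were higher and 3330 lower at that p, their numbers at the stricter adjusted p below 0.05. VCL, which encodes vinculin, a linker of adhesions to actin, had 1904 and 1752 counts in the control and 2752 and 2915 after depletion. VCL had a log2 fold change of 0.66 ± 0.05 (SE; adjusted p = 8.99e-17, edgeR's quasi-likelihood test), close to the fold threshold.

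Of 17 genes for integrin ligands, 15 were tested, and 9 were called higher and 3 lower from 0 h to the 96 h control, where 25.4% and 22.9% of all tested genes were. Several passed the filter only through the group in which they are high. With at least 10 counts required in every library 4 were higher and 2 lower, where 2769 and 2700 of 12146 genes were. The median log2 fold change of the 15 ligand genes was 2.68, or 2.31 with genes at 0 counts at 0 h set to their lower bound. FN1, which encodes fibronectin, the ligand of α5β1 and α4β1, had 100 and 106 counts at 0 h, 82801 and 84034 in the 96 h control and 134629 and 129320 after depletion. C3, the complement protein whose fragment binds αMβ2 and αXβ2, had 0 and 2, 954 and 957, and 1820 and 1343 counts in the 3 groups. SPP1, which encodes osteopontin, was at least 811-fold above 0 h in the control. JAM2, JAM3 and ICAM2, genes of adhesion molecules of the immunoglobulin superfamily, fell by 4.61 ± 0.37, by 0.99 ± 0.14 and by 0.86 ± 0.10 on the log2 scale (SE). The adjusted p of JAM3 and ICAM2 was 6.13e-09 and 7.11e-11 in edgeR's quasi-likelihood test, and JAM2 passed the filter only through the libraries at 0 h.

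CTCF depletion left 2 of the 15 ligand genes called higher and 1 lower against the 96 h control, where 5.41% and 7.03% of all tested genes were, with a median of 0.15. DESeq2 also called 3, glmTreat called 0, 1 was higher without replicate 1 of the depleted group and 0 were lower without replicate 1 of the 96 h control. FN1 had a log2 fold change of 0.69 ± 0.06 (SE; adjusted p = 7.22e-16, edgeR's quasi-likelihood test) and C3 of 0.76 ± 0.08 (SE; adjusted p = 2.05e-11, edgeR's quasi-likelihood test). JAM3 fell by 0.79 ± 0.17 on the log2 scale (SE; adjusted p = 1.66e-04, edgeR's quasi-likelihood test). VCAM1, whose product is the ligand of α4β1 on endothelium, had 0 counts in all libraries, and MADCAM1, for the ligand of α4β7, had 1 count in 1 library at 0 h.

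**Figure D3:**
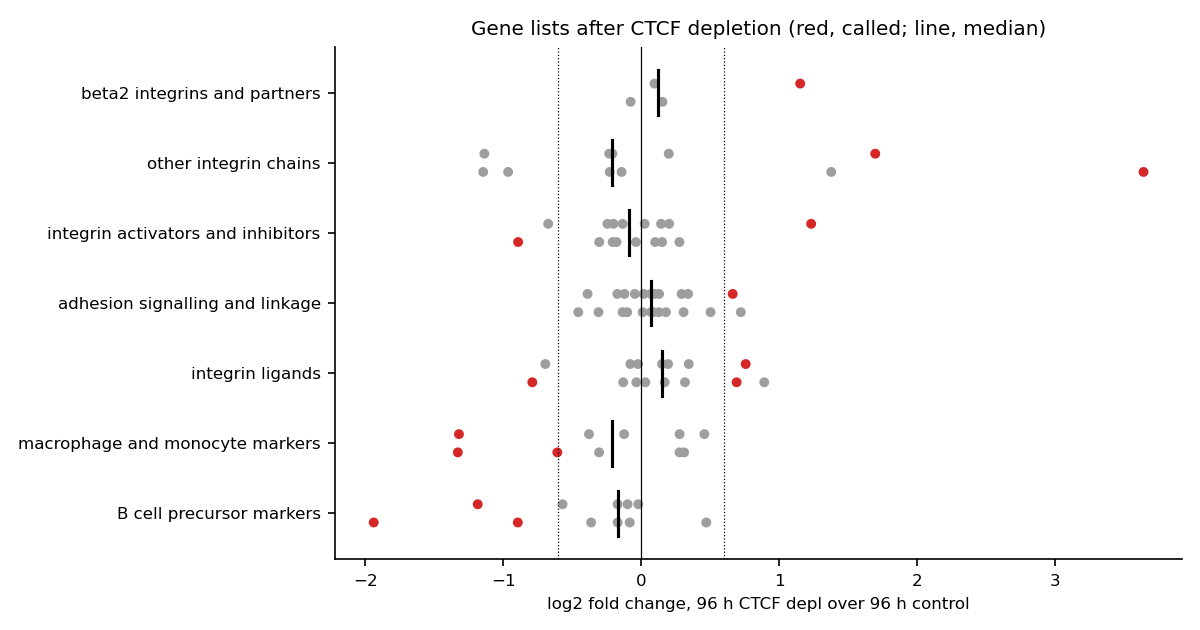
Log2 fold change of the CTCF-depleted group over the 96 h control (x axis) for the tested genes of 7 lists (y axis). Red points are genes past both thresholds, black lines are list medians and dotted lines mark 0.6 in either direction. List medians lie between -0.21 and 0.15, and the red point of the β2 integrins is ITGAM, shown as a description.

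Markers of other cell states moved between the same libraries. All 10 macrophage and monocyte markers were called higher from 0 h to the 96 h control, where 25.4% of all tested genes were. Their median log2 fold change was 7.19, or 6.29 with genes at 0 counts set to their lower bound. All 11 B cell precursor markers were called lower (median -3.56), where 22.9% of all tested genes were. Most of the macrophage markers were at or near 0 counts at 0 h and passed the filter only through the libraries at 96 h, so that they had to be higher. With at least 10 counts required in every library 3 were called higher, against 10 lower for the B cell precursor list. Of 12146 genes, 2769 were called higher and 2700 lower under that filter. Between the groups at 96 h, 0 of the 10 macrophage markers were called higher and 3 lower, where 5.41% and 7.03% of all tested genes were, with a median of -0.21. DESeq2 called 1, and all 10 had an unadjusted p below 0.05 in edgeR's quasi-likelihood test. MRC1, which encodes the mannose receptor, fell by 1.33 ± 0.12 on the log2 scale (SE). MARCO and MSR1, scavenger receptor genes, fell by 1.32 ± 0.42 and by 0.61 ± 0.08 (SE), MSR1 close to the fold threshold. MARCO, close to the p threshold, passed the filter only through the 96 h control, in which it is high, and its call is a description. Only 1 of the 3, MRC1, was still called with RLE, library totals, no filter or glmTreat. Fewer were called lower when any 1 library was left out, and a higher call appeared without replicate 1 of the depleted group. The list went both ways: at an adjusted p below 0.05 in edgeR's quasi-likelihood test, whatever the fold, 4 were higher and 6 lower, where 2375 and 3330 of all 14758 tested genes were, and CD14 had a log2 fold change of 0.46 ± 0.16 (SE). Of the B cell precursor markers, 3 of 11 were called lower, where 7.03% of all tested genes were, with a median of -0.17: RAG1 fell by 1.94 ± 0.20, IGLL1 by 1.18 ± 0.29 and VPREB1 by 0.89 ± 0.15 on the log2 scale (SE). The count fell to 1 with glmTreat and to 2 without replicate 2 of the 96 h control or without replicate 1 of the depleted group. The other 8 were not called; all but DNTT were negative, and DNTT had a log2 fold change of 0.47 ± 0.12 (SE; adjusted p = 0.00127, edgeR's quasi-likelihood test). The part of these markers in the integrin values was not tested.

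Other lineages were low. Granulocyte markers (8 genes) summed to 0.722 and 0.900 CPM at 0 h, 81.1 and 86.7 CPM in the 96 h control and 66.4 and 60.0 CPM after depletion, mostly from CSF3R. The 4 tested were called higher at 96 h in the control, where 25.4% of all tested genes were. But they passed the filter only through the libraries at 96 h and had to be higher. ELANE and PRTN3 were at 0 counts at 0 h. After depletion MPO was called lower with a log2 fold change of -0.70 ± 0.22 (SE), where 7.03% of all tested genes were called lower. Dendritic cell markers (7 genes) summed to 13.7 and 11.6, 18.8 and 20.1, and 16 and 15.6 CPM in the 3 groups. Of the 3 tested, CLEC10A, at 0 counts at 0 h, and BATF3 were called higher in the 96 h control, beside the same 25.4%. CLEC10A was called lower after depletion, beside the same 7.03%, with a log2 fold change of -1.17 ± 0.36 (SE). DESeq2 called 0 genes of either list between the groups at 96 h, and neither MPO nor CLEC10A was called with glmTreat or when any 1 library at 96 h was left out.

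T and NK cell markers (8 genes) summed to 2.89 and 3.08, 39.5 and 38.3, and 33.1 and 35.0 CPM, mostly NKG7, and CD2 and NKG7 were called higher in the 96 h control. Megakaryocyte markers (6 genes, ITGA2B among them) summed to 4.54 and 2.48, 26.2 and 27.7, and 30.4 and 28.1 CPM, with PPBP the most abundant at 96 h, ITGA2B and PPBP called higher and GP9 called lower. Of these CD2, PPBP and GP9 passed the filter only through the group in which they are high. Over all tested genes 25.4% were called higher and 22.9% lower in that comparison. In the T and NK cell and megakaryocyte lists, 0 genes were called between the groups at 96 h by edgeR or by DESeq2. By edgeR 5.41% of all tested genes were called higher and 7.03% lower. With only 2 and 3 genes tested in these lists, nothing is read from the count. At an unadjusted p below 0.05 in edgeR's quasi-likelihood test, 1 of the T and NK cell markers and 0 of the megakaryocyte markers passed. Among all 14758 tested genes, at least 2375 higher and 3330 lower ones did, their numbers at the stricter adjusted p below 0.05.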

How the data were processed

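RNA-seq counts of 6 libraries were used. The authors made the deposited raw counts per gene symbol by aligning reads to hg38 with STAR 2.6.1d and counting them with featureCounts 2.0.6, per the submitters' processing notes. The sources used here give neither the annotation release nor the strand setting of the counting. The deposited table was analysed in R 4.3.3 with edgeR 4.0.16 (filterByExpr, TMM, quasi-likelihood test on all 6 libraries with group as the only term, Benjamini-Hochberg adjustment over 14758 genes); DESeq2 1.42.0 was an alternative. Standard errors are the log2 fold change divided by the square root of F. The fit was tested on simulated data. Tables and plots were made in Python 3.11.15 with numpy 2.4.6, pandas 2.3.3, scipy 1.17.1 and matplotlib 3.10.9.

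Positions on hg38 come from GENCODE release 44, matched by symbol or through a unique RefSeq synonym, which placed 23658 symbols (78.8%) and 13519 tested genes (91.6%). Lengths are those of MANE Select transcripts. Replicates of each group differed beyond sampling noise (chi-square per degree of freedom 2.76, 1.92 and 1.73) and were kept as separate samples. Reads carry no molecular identifiers, so that intervals and floors cover counting error only. The floor of detection was 3 counts per library.

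The members and gene lists were chosen with earlier results of these data known. Lists covered β2 integrins, other integrin chains, activators and inhibitors, adhesion signalling, ligands, and markers of macrophages, B cell precursors, granulocytes, dendritic cells, T and NK cells and megakaryocytes. Genes named were the 10 members, CTCF, up to 3 called genes of each list with the largest fold change in each direction, direct neighbours of ITGAM, ITGAX and ITGAL, called genes within 500 kb of ITGAM, and the 5 nearest patterns to ITGAM, ITGAX and ITGB2; others named were chosen after their values were seen. A few genes picked by these criteria are left out of the text. Alternatives were DESeq2, RLE or library totals in place of TMM, other filters and thresholds, glmTreat, a fit of the 4 libraries compared, a replicate block, leaving out each library, and no division by length. Union exon length was added after seeing the data.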

Additional observations from a re-analysis of the deposited data

How the results depend on the processing

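The 16 alternative settings left most of the values in place: 447 member fold changes kept their direction and their side of the thresholds, 6 were no longer past them, 3 passed them only under the looser rule, and 15 changed sign, all of the last being close to 0. With library totals in place of TMM the median log2 fold change of all tested genes from 0 h to the 96 h control moved from 0.02 to -0.10. Between the groups at 96 h, DESeq2 called 559 genes higher and 721 lower of 21566, and glmTreat called 298 and 344 of 14758. Requiring at least 10 counts in every library removed ITGAM, ITGAX and ITGAL, so that 5 members were called higher at 96 h in either comparison with 0 h. Of the 12146 genes left, 2769 were called higher in the 96 h control and 3012 in the depleted group. Between the groups at 96 h, members other than ITGAM called higher numbered 2 (and 1 lower) when adjusted p below 0.05 sufficed whatever the fold, and 0 with a log2 fold change above 1 or with glmTreat, where ITGB7 did not pass these stricter rules on fold (adjusted p = 0.023 with glmTreat, edgeR's quasi-likelihood test against a fold threshold; range over alternatives 1.24e-23 to 0.023). The ITGAM share of β2 partners after depletion was 47.7% without division by length and 50.02% with union exon length, which was chosen after seeing the data, and without 1 library it ranged from 48.4% to 48.9%.

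The log2 fold change of ITGAV from 0 h to the 96 h control was -0.0614 with library totals and ranged from -0.0456 to 0.104 without 1 library. Between the groups at 96 h, ITGA5 was 0.0185 with library totals, 0.0137 without a filter and 0.0147 with only the 4 libraries compared. Without 1 library, ITGA5 ranged from -0.0381 to 0.0656, ITGA4 from -0.0595 to 0.0141 and ITGB1 from -0.0664 to 0.0419. The cause was not tested. A fit that leaves a group with 1 library assumes that it varies like the other groups. The replicate numbers did not pair the samples (correlations of replicate differences across genes -0.02, 0.01 and -0.03). With a replicate block, 8 members were called higher and 1 lower in each comparison with 0 h, and 1 other than ITGAM was higher and 0 were lower between the groups at 96 h; over all genes the calls were 785 higher and 1033 lower against 798 and 1038.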
